A study of Homo sapiens with 12 samples.

Results

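The response of L540 cells to the anti-CD30 antibodies T427 and T408 was examined by taking the 4 arrays of cells given T427 or T408 as 1 group and setting them against the 2 arrays of untreated cells. The comparison used 6 of the 12 arrays of the series. Its members were the probes annotated with exactly 1 gene and detected, with a detection p-value below 0.01, on both arrays of T427, of T408 or of untreated cells. These were 10060 probes, of 28082 annotated with 1 gene and 48780 on the array, and they measured 7921 genes.

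The study compared ligands of CD30 that bind different epitopes, on Illumina HumanHT-12 v3 BeadChips, in 6 groups of 2 biological duplicates. L540 is an established CD30-positive Hodgkin lymphoma cell line. The cells were cultured for 16 h and then received, at 10 µg/ml, the anti-CD30 monoclonal antibody T427 or T408, the fusion protein CD30L-Fc (the CD30 ligand CD153 joined to an Fc part), the antibody T104, or PW30, a mouse/human chimeric antibody, while a further group stayed untreated. Treatment lasted 8 h according to the design text, which calls the 24 h of the sample labels an error. The antibody called T408 in the sample labels appears as T428 in that text, and the spelling T408 was kept. The ligands were added in PBS, and the sources used here do not say whether untreated cells received it. No control antibody or control Fc protein was analysed here, so that an effect of CD30 binding and an effect of adding an antibody cannot be told apart. All groups were 1 cell line, and the p-values measure the spread between its cultures.

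CD30, encoded by TNFRSF8, is a receptor of the tumour necrosis factor (TNF) receptor family that marks the malignant cells of Hodgkin lymphoma. When its ligand cross-links it, the cytoplasmic tail recruits TRAF adaptor proteins, which start the canonical and the alternative NF-kB pathways. NF-kB dimers are held in the cytoplasm by IkB proteins until these are degraded, and many NF-kB target genes encode inhibitors of the pathway, so that the response limits itself.

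The 6 arrays were close to each other. Duplicates correlated at 0.988 to 0.993 (Pearson's r over the probes tested), T427 with T408 arrays at 0.991 to 0.992, and T427 or T408 with untreated arrays at 0.987 to 0.992. The median signal before normalization was 130 to 136 on the T427 and T408 arrays and 149 and 152 on the untreated arrays, and its part in the results was not tested. Probes detected numbered 11225 to 11833 on the T427 and T408 arrays and 11278 and 11061 on the untreated arrays. Of 16 Hodgkin cell markers, 11 were detected on all 6 arrays, among them GATA3, IRF4, JUNB and TRAF1, and CCL17, CCL22, CD40 and LMNA on none. Markers of other cells were detected on all 6 arrays for 4 of 16 T cell genes, 3 of 11 cytotoxic granule genes, 2 of 11 B cell genes, 2 of 15 monocyte and macrophage genes and 0 of 12 fibroblast and epithelial genes. Detected on all 6 were CD2, CD4, CD247 and LAT of the T cell genes, and GZMB, NKG7 and TIA1 of the cytotoxic granule genes. So were BLK and FCER2 of the B cell genes, and CD68 and CSF1R of the monocyte and macrophage genes. CD3D, CD3E, CD8A, MS4A1, CD79A and CD14, which define T cells, B cells and monocytes, were not detected on any of the 6. TNFRSF8 itself had log2 signals of 7.65 and 6.75 with T427 and 6.98 and 8.02 with T408, against 7.60 and 7.33 in untreated cells. The groups overlapped, and TNFRSF8 was not called (difference -0.11 ± 0.27, standard error, SE). Its probe was detected on both untreated arrays, both T408 arrays and 1 of the 2 T427 arrays. The dimmest detected probe of each of the 6 arrays lay at 6.67 to 6.99, so that part of the TNFRSF8 signals were near the limit of detection. With the SD of 0.59 over the 4 antibody arrays, an unchanged level cannot be told from a modest change in either direction.

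The response of the pooled T427 and T408 cells was small, and almost all of it was upward. Levels are normalised log2 signals, differences are log2 differences with their SE, and a call is an adjusted p below 0.05 in limma's moderated test with Benjamini-Hochberg adjustment over all 10060 probes. The test called 39 probes (0.388% of those tested), of which 37 were higher (0.368%) and 2 lower (0.0199%) with T427 and T408. Taking the brightest probe of each gene, 30 of 7921 genes rose (0.379%) and 1 fell (0.0126%). The detection filter could be met through either antibody group or the untreated group. It let in 134 genes whose brightest probe was undetected on both untreated arrays, and 5 undetected on all 4 antibody arrays. With detection required on all 6 arrays, 36 probes were called, 34 higher and 2 lower. Of the raised genes 13 had a fitted rise of at least 2-fold, although DDX49, ANK3 and SDC4 among them were undetected in untreated cells and have only a lower bound. CEL, the lowered gene, had a fitted fall of less than 2-fold. It was detected on 1 of the 4 antibody arrays, so that the true size of its fall is not known. The 5 largest fitted rises were those of TRAF1, RELB, DDX49, IL4I1 and TNFRSF9. The median difference over all 7921 genes was -0.02. At an unadjusted p below 0.05 there were 894 probes (8.89%), 504 higher and 390 lower. An exact permutation test of 4 arrays against 2 has 15 arrangements and cannot go below p = 0.0667, so that single genes were tested only in the fit across all probes. The count of 39 depended on the untreated arrays: it was 85 without untreated replicate 1 and 24 without untreated replicate 2.

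**Figure D1:**
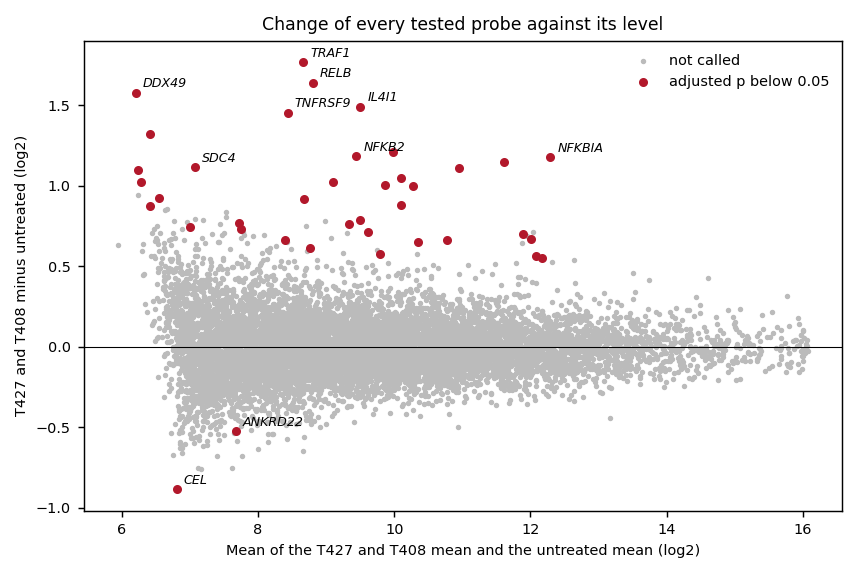
Each point is 1 of the 10060 probes tested, with its mean log2 signal on the horizontal axis and the log2 difference of pooled T427 and T408 against untreated on the vertical axis. Most probes lie near 0, the 37 raised probes (red, as are the 2 lowered ones) reach 1.77 at TRAF1, and CEL lies at -0.88.

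Among the NF-kB subunits, RELB and NFKB2 rose. RELB encodes the subunit that works chiefly in the alternative pathway. Its log2 signal was 9.54 and 9.49 with T427 and 9.78 and 9.67 with T408, against 8.02 and 7.94 in untreated cells. All 4 antibody arrays lay above both untreated arrays, by 1.64 ± 0.11 on average, a 3.12-fold rise with the smallest adjusted p of all probes (limma, 1.48e-05). NFKB2 encodes the precursor that is processed into the partner of RELB. It had 10.19 and 10.10 with T427 and 9.81 and 10.03 with T408, against 8.73 and 8.97 in untreated cells. The groups did not overlap, and the difference was 1.18 ± 0.12 (limma adjusted p = 3.88e-04). A second, dimmer NFKB2 probe was 0.78 ± 0.15 higher and just missed the threshold (limma adjusted p = 0.0501).

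Of the IkB proteins and other regulators of the pathway, NFKBIA, TNFAIP3, NFKBIZ and NFKBIE rose. NFKBIA encodes IkB-alpha, the main cytoplasmic inhibitor and a classical NF-kB target. Its log2 signal was 12.78 and 12.83 with T427 and 12.90 and 13.002 with T408, against 11.55 and 11.85 in untreated cells. The 4 antibody arrays were 1.18 ± 0.11 higher and did not overlap the untreated arrays (limma adjusted p = 1.91e-04). TNFAIP3, a ubiquitin-editing enzyme that ends NF-kB signalling, had 11.43 and 11.51 with T427 and 11.68 and 11.43 with T408, against 10.36 and 10.44 in untreated cells. Its rise of 1.11 ± 0.12 (limma adjusted p = 4.97e-04) was close in size to that of NFKBIA. NFKBIZ, a nuclear IkB protein that acts on transcription, had 10.91 and 10.72 with T427 and 10.70 and 10.76 with T408, against 9.84 and 9.71 in untreated cells, a difference of 0.999 ± 0.11 without overlap (limma adjusted p = 5.13e-04). NFKBIE, which encodes IkB-epsilon, had 8.02 and 8.35 with T427 and 8.05 on both T408 arrays, against 7.25 and 7.51 in untreated cells. Its rise of 0.73 ± 0.12 (limma adjusted p = 0.0184) no longer passed under 3 of 17 alternative settings, among them without untreated replicate 1.

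Of 22 NF-kB subunits and regulators listed, 19 were measured: these 6 rose (0.379% of all genes tested rose), 0 fell and 13 did not pass the test. The 13 lay between -0.09 and 0.37, and include NFKB1, RELA, BCL3, CHUK, IKBKB, IKBKG, MAP3K14, TNIP1 and CYLD. The median over the 19 was 0.30, beside -0.02 over all 7921 genes. On 9 of the 19 the antibody and untreated arrays did not overlap, beside 16.6% of all genes. HIVEP1, a zinc finger transcription factor that binds kB-like enhancer sequences and was not in the list, had 9.02 and 9.21 with T427 and 9.18 and 9.14 with T408, against 8.19 and 8.25 in untreated cells. It rose by 0.92 ± 0.10 (limma adjusted p = 4.84e-04).

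**Figure D2:**
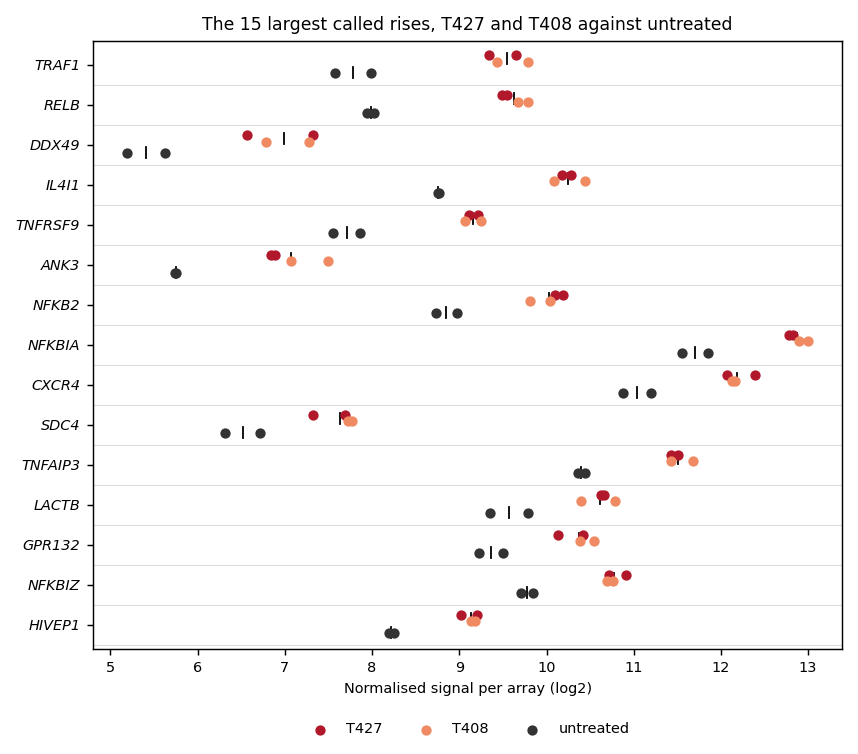
Points are the normalised log2 signals of each T427, T408 and untreated array for the 15 raised genes with the largest differences, and vertical lines mark the mean of the 4 antibody arrays and of the 2 untreated arrays. In each of the 15 genes all 4 antibody points lie to the right of both untreated points, which the rule for choosing them required.

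The 250 bases before the annotated transcription start of the raised genes were read from a table of RefSeq promoters (GRCh38.p14), in which 24 of the 30 were matched. RELB, NFKBIE, HIVEP1, DDX49, APOL6 and RNF19B were not analysed here. The consensus decamer of NF-kB was searched on both strands, with overlapping matches allowed. It was present in 7 of the 24 (29.2%), namely NFKBIA, TNFAIP3, NFKBIZ, TNFRSF9, SDC4, CFLAR and NFE2L3. Of 6626 tested genes with an entry 386 held it (5.83%), and of all 27303 entries 1380 (5.05%). These shares are a description of letters and carry no test. Of the 7, the 5 with the largest differences are shown, since they let the decamer be seen beside the levels of the genes. They span, on GRCh38.p14, NFKBIA chr14:35404750-35404999 (minus strand), TNFAIP3 chr6:137867009-137867258 (plus strand), NFKBIZ chr3:101827740-101827989 (plus strand), TNFRSF9 chr1:7940840-7941089 (minus strand) and SDC4 chr20:45348425-45348674 (minus strand). Each runs 5′ to 3′ on the strand of its gene and ends at the base before the start, with matches in capitals. TNFAIP3 holds 2 separate matches, and TNFRSF9 holds 2 that overlap and share all but their outermost bases.
NFKBIA: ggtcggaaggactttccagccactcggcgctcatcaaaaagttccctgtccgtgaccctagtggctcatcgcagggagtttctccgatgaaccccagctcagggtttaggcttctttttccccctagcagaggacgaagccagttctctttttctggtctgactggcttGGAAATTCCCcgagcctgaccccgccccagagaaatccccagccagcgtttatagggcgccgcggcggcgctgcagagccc
TNFAIP3: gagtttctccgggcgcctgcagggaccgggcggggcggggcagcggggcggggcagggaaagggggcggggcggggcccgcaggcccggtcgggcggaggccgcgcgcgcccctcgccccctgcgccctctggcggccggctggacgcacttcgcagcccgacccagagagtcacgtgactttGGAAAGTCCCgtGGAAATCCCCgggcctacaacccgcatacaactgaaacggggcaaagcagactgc
NFKBIZ: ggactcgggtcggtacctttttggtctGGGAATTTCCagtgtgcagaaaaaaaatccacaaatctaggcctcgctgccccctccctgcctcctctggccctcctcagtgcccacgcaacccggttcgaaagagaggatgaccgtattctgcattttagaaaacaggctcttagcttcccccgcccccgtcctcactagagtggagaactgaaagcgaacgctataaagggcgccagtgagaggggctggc
TNFRSF9: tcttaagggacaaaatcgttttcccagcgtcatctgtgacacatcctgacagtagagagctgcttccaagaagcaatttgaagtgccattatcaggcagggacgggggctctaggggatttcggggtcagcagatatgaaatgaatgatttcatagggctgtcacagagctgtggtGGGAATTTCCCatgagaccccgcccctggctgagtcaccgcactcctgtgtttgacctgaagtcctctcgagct
SDC4: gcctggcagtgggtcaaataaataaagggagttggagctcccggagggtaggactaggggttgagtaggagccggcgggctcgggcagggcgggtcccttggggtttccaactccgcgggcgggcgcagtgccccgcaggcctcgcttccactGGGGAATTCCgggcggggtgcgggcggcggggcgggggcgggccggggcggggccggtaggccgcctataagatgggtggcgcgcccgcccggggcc

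Among the adaptors and receptors of the TNF family, TRAF1 and TNFRSF9 rose. TRAF1, an adaptor that binds the tail of CD30 and other TNF receptors, had the largest difference of the 7921 genes. Its log2 signal was 9.34 and 9.65 with T427 and 9.43 and 9.78 with T408, against 7.57 and 7.99 in untreated cells. The gap of 1.77 ± 0.16, a 3.40-fold rise, was far wider than the spread within either group (limma adjusted p = 1.24e-04). Of 12 measured TRAF adaptors and associated proteins it was the only gene that rose, 0 fell, and the other 11 lay between -0.45 and 0.52, with a median over the 12 of 0.10.

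TNFRSF9 encodes the costimulatory receptor CD137. It had 9.12 and 9.21 with T427 and 9.07 and 9.25 with T408, against 7.87 and 7.55 in untreated cells. The 4 antibody arrays lay within a narrow range and were 1.45 ± 0.13 higher, a 2.74-fold rise (limma adjusted p = 1.24e-04). No other of 10 measured TNF receptors passed the test, and their median was -0.04. LTA, which encodes the cytokine lymphotoxin-alpha, was the 1 of 6 measured TNF ligands that rose. It had 10.64 and 10.76 with T427 and 10.73 and 10.58 with T408, against 9.95 and 10.10 in untreated cells, a difference of 0.65 ± 0.10 (limma adjusted p = 0.0131). The call of LTA was lost under 4 of 17 alternative settings, among them without either untreated replicate. The other 5 ligands lay between 0.00 and 0.38, and the median of the 6 was 0.23.

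CXCR4, CD83 and GPR132, which encode surface receptors and markers, were raised. CXCR4, the receptor of the chemokine CXCL12, had 12.07 and 12.39 with T427 and 12.16 and 12.12 with T408, against 11.20 and 10.88 in untreated cells. Its difference was 1.15 ± 0.14 (limma adjusted p = 0.00181), and a second CXCR4 probe gave 1.21 ± 0.11. It was the 1 raised gene of 4 measured chemokines and chemokine receptors, whose median was 0.19. CD83, a surface marker of activated antigen-presenting cells and of Hodgkin cells, had 10.33 and 10.52 with T427 and 10.70 and 10.60 with T408, against 9.61 and 9.70 in untreated cells. It rose by 0.88 ± 0.11 (limma adjusted p = 0.00209), and its second probe by 1.02 ± 0.18. CD83 was the 1 raised gene of 12 measured costimulation, adhesion and activation molecules, whose median was -0.05. GPR132, a G protein-coupled receptor of lymphocytes and macrophages, had 10.42 and 10.13 with T427 and 10.38 and 10.54 with T408, against 9.23 and 9.51 in untreated cells, a rise of 1.002 ± 0.13 (limma adjusted p = 0.00273).

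SDC4, a heparan sulphate proteoglycan, had 7.69 and 7.33 with T427 and 7.77 and 7.72 with T408, against 6.71 and 6.32 in untreated cells. It was detected on all 4 antibody arrays and on neither untreated array. Where a gene was not well above background in untreated cells, the rise has only a lower bound, taken against the dimmest detected probe of each untreated array. For SDC4 that bound was at least 1.603-fold (limma adjusted p = 0.00209). APOL6, an apolipoprotein L family member, was likewise undetected in untreated cells and at least 1.35-fold higher with T427 and T408 (limma adjusted p = 0.0184). The call of APOL6 was lost under 7 of the 16 alternative settings that tested it. Among these were no background correction, the authors' processed values, and leaving out T427 replicate 2 or untreated replicate 2. ANK3, which encodes the membrane skeleton adaptor ankyrin-G, had 6.84 and 6.88 with T427 and 7.50 and 7.07 with T408, against 5.75 and 5.76 in untreated cells, where it was undetected. It was detected on 3 of the 4 antibody arrays, and its rise was at least 1.09-fold (limma adjusted p = 0.00209). DDX49, a DEAD-box RNA helicase gene, was detected on 3 antibody arrays and no untreated array, with 6.57 and 7.32 with T427 and 7.28 and 6.78 with T408, against 5.63 and 5.19 in untreated cells. Its fitted difference of 1.58 ± 0.21 (limma adjusted p = 0.00279) rests on signals below background, and the bound was at least 1.03-fold. That call was lost without untreated replicate 2. SDC4, APOL6, ANK3 and DDX49 met the detection filter only through T427 or T408 arrays, on which they were higher. The adjusted p-values given for them belong to the fitted differences and not to the bounds.

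Outside the TNF and NF-kB families the clearest rise was that of IL4I1, a secreted L-amino acid oxidase that degrades phenylalanine. It had 10.17 and 10.28 with T427 and 10.44 and 10.09 with T408, against 8.76 and 8.75 in untreated cells. The untreated arrays were nearly equal, and the difference was 1.49 ± 0.12, a 2.81-fold rise (limma adjusted p = 5.85e-05). LACTB, a mitochondrial serine protease, had 10.66 and 10.63 with T427 and 10.40 and 10.79 with T408, against 9.35 and 9.79 in untreated cells, a difference of 1.05 ± 0.14 (limma adjusted p = 0.00303). CFLAR, an inhibitor of caspase activation at death receptors, had 10.04 and 9.95 with T427 and 9.69 and 9.89 with T408, against 8.86 and 9.35 in untreated cells. Its difference of 0.79 ± 0.14 passed (limma adjusted p = 0.0286), and it was the 1 raised gene of 9 measured anti-apoptotic genes, whose median was 0.08. The call was lost under 6 of 17 alternative settings, among them without T427 replicate 1 or 2, T408 replicate 2 or untreated replicate 1. The 2 untreated arrays of CFLAR lay further from each other than the higher of them from the lowest antibody array.

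TUBB2A, a beta-tubulin, had 8.93 and 8.77 with T427 and 8.60 and 8.63 with T408, against 8.00 and 8.15 in untreated cells, a rise of 0.66 ± 0.11 (limma adjusted p = 0.0211). It was the 1 raised gene of 17 measured tubulin and actin genes, whose median was 0.00. DDIT4, a stress-induced inhibitor of the growth kinase complex mTORC1, had 12.49 and 12.31 with T427 and 12.34 and 12.32 with T408, against 11.73 and 11.87 in untreated cells. It rose by 0.57 ± 0.10 (limma adjusted p = 0.0328), the smallest difference among the raised genes, and was the 1 raised gene of 17 in the list of unfolded protein and amino acid responses, whose median was 0.02. The call of DDIT4 was lost under 11 of 17 alternative settings, including each that left out 1 array, and that of TUBB2A under 5 of 17, among them without T427 replicate 2 and without either untreated replicate. The other 16 genes of its list lay between -0.32 and 0.18, and the cause of the DDIT4 rise was not tested.

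Besides NFKBIE and APOL6, 8 raised genes were named only after their values were seen. PLEKHG1 had 8.03 to 8.21 with T427 and T408, against 7.33 and 7.35 in untreated cells (difference 0.77 ± 0.10), and RNF19B, a ubiquitin ligase, had 9.55 to 9.83, against 8.78 and 9.12 in untreated cells. RIPOR1 had 9.86 to 10.13 with T427 and T408, against 9.08 and 9.45 in untreated cells, and DRC9 had 12.18 to 12.36, against 11.50 and 11.59. NFE2L3, a transcription factor of the cap'n'collar family, had 12.25 to 12.47 with T427 and T408, against 11.59 and 11.76 in untreated cells. RAB9A, a GTPase of transport from late endosomes to the Golgi, had 10.99 to 11.16, against 10.41 and 10.46 in untreated cells. FAM135A had 8.94 to 9.18 with T427 and T408, against 8.41 and 8.49 in untreated cells, and STX4, a plasma membrane syntaxin of exocytosis, had 9.99 to 10.17, against 9.42 and 9.60. In all 8 the antibody arrays lay above both untreated arrays, with differences of 0.58 to 0.77. The call of PLEKHG1 held under all 17 alternative settings. FAM135A and STX4 lost theirs under 9 of 17, RNF19B and NFE2L3 under 6, RIPOR1 under 3, RAB9A under 2 and DRC9 under 1. Among these settings, leaving out untreated replicate 2 ended the call of each of the 8 except PLEKHG1 and RIPOR1, and leaving out untreated replicate 1 that of FAM135A, STX4 and RIPOR1.

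Different probes of a gene did not always move together. CXCR4 and CD83 were called by both of their tested probes and LACTB by 2 of 3. NFKB2, PLEKHG1, TUBB2A and FAM135A were called by the brighter of 2, and the second probe of FAM135A differed by 0.25 ± 0.13. C17orf58, whose brightest probe just missed the threshold (0.54 ± 0.11, limma adjusted p = 0.0690), was called by another of its 4 probes (0.55 ± 0.10, limma adjusted p = 0.0286). For ADAM17, CEP19 and COMMD5 a dim probe that was undetected in untreated cells was called as higher, while the brightest probe of each gene differed by -0.01 ± 0.15, -0.20 ± 0.20 and -0.06 ± 0.11. These 4 genes and ANKRD22 were named because their probes were called, after their values were seen.

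Lowered genes were few and close to the threshold. CEL, which encodes bile salt-activated lipase, was the 1 gene of 7921 that fell by its brightest probe. It had 6.22 and 6.36 with T427 and 6.13 and 6.72 with T408, against 7.15 and 7.34 in untreated cells. The groups did not overlap, and the fitted difference was -0.88 ± 0.16 (limma adjusted p = 0.0258). That value rests in part on undetected antibody signals. With T427, where CEL was undetected on both arrays, the fall was at least 1.29-fold. CEL was detected on 1 of the 4 antibody arrays, near the limit of detection, and its call was lost under 10 of the 16 alternative settings that tested it, with adjusted p from 0.00523 to 0.236 over these. ANKRD22 fell by 1 of its 2 probes (limma adjusted p = 0.0358), with 7.34 to 7.45 with T427 and T408, against 7.98 and 7.89 in untreated cells. The call was lost under 14 of the 16 alternative settings that tested it, and its brightest probe differed by -0.26 ± 0.13 and was not called.

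The lowered genes that came next did not pass. SGK1, a kinase of ion transport and cell survival, had 7.66 and 7.65 with T427 and 7.96 and 7.48 with T408, against 8.29 and 8.35 in untreated cells. The groups did not overlap, and SGK1 missed the threshold narrowly (difference -0.64 ± 0.12, limma adjusted p = 0.0501). NMRK1, a nicotinamide riboside kinase that makes NAD precursors, had 6.41 to 6.89 with T427 and T408, undetected on all 4 arrays, against 7.10 and 7.34 in untreated cells (limma adjusted p = 0.0972). RILP, an effector of Rab GTPases on lysosomes, had a difference of -0.68 ± 0.16, and EFNB2, an ephrin ligand, of -0.63 ± 0.15. EPOR, the erythropoietin receptor, lay at -0.57 ± 0.14, the long non-coding RNA PVT1 at -0.51 ± 0.13 and HHLA2, an immune ligand of the B7 family, at -0.48 ± 0.11. LYPLA2, which removes palmitate from proteins, lay at -0.47 ± 0.12 and FRAT2, a regulator of Wnt signalling, at -0.42 ± 0.10. PVT1 was detected on 3 of the 4 antibody arrays, EPOR on 2 and EFNB2 on 1. None of these 9 genes was called (limma adjusted p of 0.0501 to 0.155), although all 4 antibody arrays lay below both untreated arrays in each. Under the alternative settings SGK1 was called in 5 of 17, NMRK1 in 2 of 16, RILP in 2 of 17, HHLA2 and FRAT2 in 1 of 17 each, EPOR and EFNB2 in 1 of 16 each, and PVT1 and LYPLA2 in none. Such separation held for 738 genes downward and 580 upward, together 16.6% of the 7921.

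**Figure D3:**
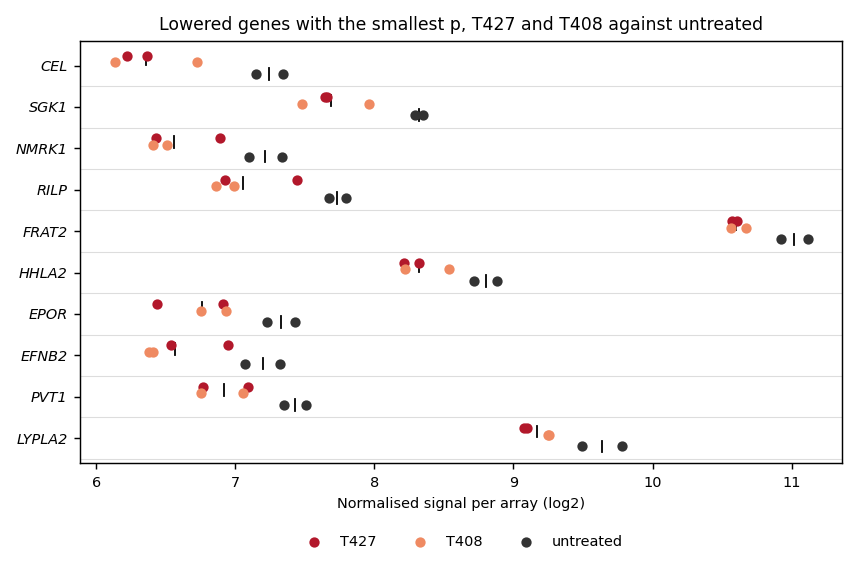
Points are the normalised log2 signals of each T427, T408 and untreated array for the 10 genes with the smallest p among those lower with T427 and T408, and vertical lines mark group means. The antibody points lie left of the untreated points in every gene, but only CEL (fitted difference -0.88) passed the test.

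Whether pooling merged unlike responses was asked by fitting T427 and T408 apart. T427 against untreated cells called 25 probes, all higher (0.249%), and T408 against untreated cells also 25, all higher (0.249%). With Benjamini-Hochberg adjustment over all 7 comparisons together lowered probes appeared too, with 52 higher and 10 lower for T427 and 55 higher and 11 lower for T408. By brightest probes the calls were 22 genes (0.278%) and 21 genes (0.265%). Both comparisons use the same 2 untreated arrays, and those arrays also chose the 30 raised genes. Of the 30, T427 alone called 20 and T408 alone called 20. CFLAR, DDIT4, FAM135A, RIPOR1, LTA, NFE2L3, RNF19B and STX4 passed in neither. LTA, for instance, was 0.67 higher with T427 (limma adjusted p = 0.0537) and 0.63 higher with T408 (limma adjusted p = 0.0828), and CFLAR 0.89 higher with T427 (limma adjusted p = 0.0501) and 0.69 higher with T408 (limma adjusted p = 0.187). NFKBIE was 0.80 higher with T427 (limma adjusted p = 0.0441) and 0.66 with T408 (limma adjusted p = 0.132). APOL6, undetected in untreated cells, was at least 1.27-fold higher with T427 (limma adjusted p = 0.134) and at least 1.43-fold higher with T408 (limma adjusted p = 0.0362).

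T427 against T408 directly called 0 of 10060 probes by limma (0%), with 456 at an unadjusted p below 0.05 (4.53%) and a smallest adjusted p of 0.998. Among the 30 raised genes the T427 minus T408 difference ran from -0.43 for ANK3 to 0.24 for TUBB2A. Its 95% interval held 0 for 29 of them, the exception being ANK3 (-0.78 to -0.07, limma adjusted p = 0.998), which was detected on 1 of the 2 T427 arrays. These intervals, not adjusted for the number of probes, reached 0.25 to 0.55 to either side. Smaller differences between the antibodies were not detectable with 2 arrays each. Over all probes, larger differences also went uncalled, among them 0.68 for TRIM45 and -0.94 for ZBTB45. The 3 genes with the smallest p were TRIM45, a ubiquitin ligase with 7.01 and 6.95 with T427 against 6.22 and 6.37 with T408, SLC7A6OS with 6.12 and 6.59 with T427 against 7.13 and 7.22 with T408, and ZBTB45 with 6.46 and 5.90 with T427 against 7.34 and 6.89 with T408. None was called. TRIM45 was detected on both T427 arrays and neither T408 array, a ratio of at least 1.23-fold, while SLC7A6OS and ZBTB45 were detected on both T408 arrays and neither T427 array, at least 1.23-fold and 1.18-fold lower with T427.

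The pooled cells were also set against the cells given CD30L-Fc, T104 or PW30. The same 4 arrays that chose the 30 raised genes enter these comparisons, so that the counts describe the size of the rise and are no separate evidence of it. T427 and T408 differed from CD30L-Fc in 616 probes (6.12%), 219 higher (2.18%) and 397 lower (3.95%). From T104 they differed in 714 (7.10%), 287 higher (2.85%) and the others lower (4.24%), and from PW30 in 978 (9.72%), 472 higher (4.69%) and 506 lower (5.03%). Under median scaling in place of quantile normalization the split was 333 higher and 289 lower against T104 and 785 higher and 308 lower against PW30. With 1 array left out the count against CD30L-Fc was 269 without CD30L-Fc replicate 2 and 307 without replicate 1, that against T104 342 without T104 replicate 1 and 349 without replicate 2, and that against PW30 481 without PW30 replicate 2 and 491 without replicate 1. By brightest probes 4.15% of all genes were lower with T427 and T408 than with CD30L-Fc, 4.52% than with T104 and 5.16% than with PW30.

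Most of the 30 raised genes lay between the untreated level and the level with these 3 ligands. With T427 and T408, 25 of the 30 were lower than with CD30L-Fc, 24 lower than with T104 and 25 lower than with PW30. TNFRSF9 averaged 9.16 with T427 and T408, against 11.61 with CD30L-Fc, 11.73 with T104 and 11.55 with PW30, while its untreated mean was 7.71. The distance to CD30L-Fc (-2.44 ± 0.13) was thus larger than the rise over untreated cells (1.45 ± 0.13). LTA was 0.65 above untreated cells with a difference of -2.17 to CD30L-Fc, and TUBB2A 0.66 above untreated cells with a difference of -1.98 to CD30L-Fc. CXCR4 came closer to these ligands than to untreated cells, with 1.15 above untreated and differences of -0.65 to CD30L-Fc, -0.67 to T104 and -0.53 to PW30. HIVEP1 was alike in this, 0.92 above untreated cells with differences of -0.61, -0.59 and -0.45 to CD30L-Fc, T104 and PW30.

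Some raised genes were not told apart from the other ligands by the test. ANK3, APOL6, FAM135A and NFE2L3 were not called against CD30L-Fc, T104 or PW30. For NFE2L3 the difference was -0.05 to CD30L-Fc (95% interval -0.30 to 0.19), -0.15 to T104 (-0.39 to 0.10) and 0.02 to PW30 (-0.23 to 0.26), beside 0.67 over untreated cells. For ANK3 it was -0.10 to CD30L-Fc (-0.47 to 0.26), -0.16 to T104 (-0.52 to 0.21) and -0.31 to PW30 (-0.67 to 0.06). The other 2 genes had intervals that left out 0 in 1 comparison each without passing after adjustment: APOL6 was at -0.38 to PW30 (-0.65 to -0.11) and FAM135A at -0.35 to CD30L-Fc (-0.59 to -0.10). Differences within these intervals were not detectable with this number of arrays. DDX49 was the exception in direction. It was undetected with CD30L-Fc and T104, as in untreated cells, and detected on 3 of the 4 T427 and T408 arrays, so that it was at least 1.13-fold higher with T427 and T408 than with CD30L-Fc and at least 1.03-fold higher than with T104, both called. It was not called against PW30.

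**Figure D4:**
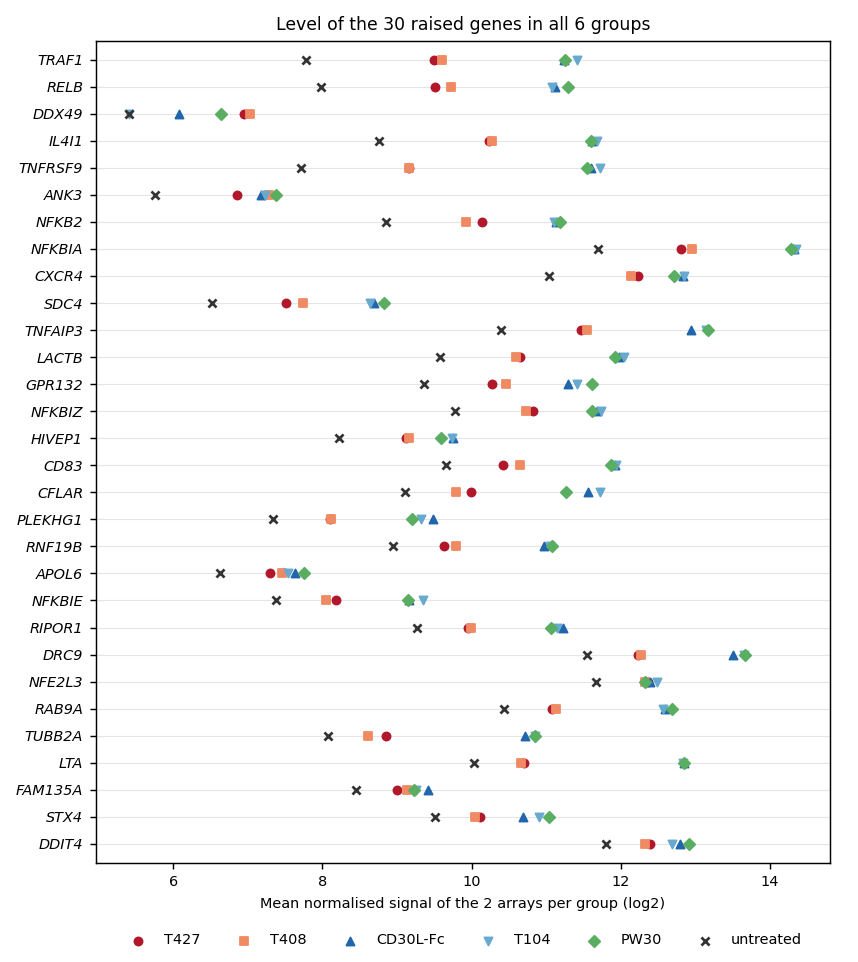
Each row is 1 of the 30 raised genes and each symbol the mean normalised log2 signal of the 2 arrays of a group. For most genes T427 and T408 lie together, above untreated and below CD30L-Fc, T104 and PW30 (TNFRSF9 at 9.16, against 7.71 untreated and 11.61 with CD30L-Fc).

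The lowered genes were placed variously against the other ligands. CEL was lower with T427 and T408 than with CD30L-Fc (-0.47 ± 0.16), T104 (-0.52 ± 0.16) and PW30 (-0.65 ± 0.16). It was called only against PW30 (limma adjusted p = 0.0191), and its signals were near or below the limit of detection. The called ANKRD22 probe was higher than with CD30L-Fc (0.51 ± 0.10), T104 (1.06 ± 0.10) and PW30 (0.67 ± 0.10), and called against each. It was detected on 1 array each of CD30L-Fc and PW30 and on no T104 array. The sizes of these differences so rest in part on undetected signals. Of the genes not called against untreated cells, HHLA2 was 0.57 higher with T427 and T408 than with CD30L-Fc, 0.58 higher than with T104 and 0.31 higher than with PW30. HHLA2 so lay between untreated cells and these ligands, and was called against CD30L-Fc and T104 but not against PW30. SGK1 was 0.37 higher than with CD30L-Fc, 0.17 higher than with T104 and 0.41 higher than with PW30. NMRK1 was undetected on the 4 T427 and T408 arrays and detected on both arrays of each of these ligands, and was at least 1.65-fold lower with T427 and T408 than with CD30L-Fc and at least 1.63-fold lower than with T104 or PW30.

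In all, 35 lists of pathways and cell types were counted, including those given above. A raised gene stood in 10 of them and a lowered gene in none, and 25 had no called member. Among 12 measured Hodgkin cell markers TRAF1, TNFRSF9 and CD83 rose, each already counted in another list (0.379% of all genes tested rose). The median over the 12 was 0.13. Of 21 cytokines and cytokine receptors none passed. The nearest was IL15, a cytokine of T and NK cells, with 6.73 and 6.32 with T427 and 7.14 and 6.67 with T408, against 5.61 and 5.93 in untreated cells, where it was undetected (limma adjusted p = 0.0563). It was detected on both T408 arrays and neither T427 array, and on both arrays of CD30L-Fc, T104 and PW30, where it was higher. Against untreated cells IL15 was called with T408 alone (limma adjusted p = 0.0447) but not with T427 alone (limma adjusted p = 0.275). In the pooled comparison it was called under 6 of the 16 alternative settings that tested it. The antibody and untreated arrays did not overlap in 9 of the 21, beside 16.6% of all genes. The median of the 21 was 0.11, beside -0.02 over all genes.

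No gene of the AP-1, JAK-STAT, interferon or antigen presentation lists was called. In these, STAT5A had a difference of 0.43 ± 0.14, ATF3, an immediate early factor, of 0.43 ± 0.11, and IRF1, an interferon regulatory factor, of 0.42 ± 0.12. The median over 16 AP-1 and immediate early genes was 0.06, over 19 genes of the JAK-STAT pathway -0.01, over 21 interferon-related genes 0.06 and over 27 genes of antigen presentation 0.09. PSME1, a proteasome activator subunit, was at 0.27 ± 0.13 and B2M, the light chain of MHC class I, at 0.20 ± 0.10. APAF1, the scaffold of the apoptosome, was the pro-apoptotic gene with the smallest p, at -0.19 ± 0.13, and the median of 11 such genes was 0.00.

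The lists of DNA replication, mitosis, cell cycle inhibitors, cholesterol synthesis, heat shock proteins and solute carriers also had no called member. MCM5, a subunit of the replicative helicase, had a difference of -0.24 ± 0.11, CDC25C, a phosphatase of mitotic entry, of -0.21 ± 0.11, and CDKN1B, a cyclin-dependent kinase inhibitor, of 0.23 ± 0.11. The median was -0.01 over 24 genes of DNA replication and -0.09 over 28 mitotic genes. SLC20A1, a phosphate transporter, was at 0.46 ± 0.12 (limma adjusted p = 0.184), HSPA9, a mitochondrial chaperone, at 0.52 ± 0.16 and HMGCS1, of cholesterol synthesis, at 0.34 ± 0.11. The nearest genes of the remaining lists were NOLC1 (0.24) for ribosome biogenesis, PSMA3 (0.40) for the proteasome, ATP5PO (0.24) for oxidative phosphorylation, CAT (0.21) for oxidative stress, PFKM (-0.25) for glycolysis and RPL4 (-0.24) for the ribosome. TCF3 (-0.22) was nearest among lymphoid transcription factors. Of markers for other cells CD4 (-0.21), NKG7 (0.11), FCER2 (0.07) and CD68 (-0.08) had the smallest p in their lists, and none was called. The signal summed over all probes of the T cell markers, then put on the log2 scale, was 14.04 to 14.14 on the T427 and T408 arrays. On the untreated arrays it was 13.90 and 14.10.

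**Figure D5:**
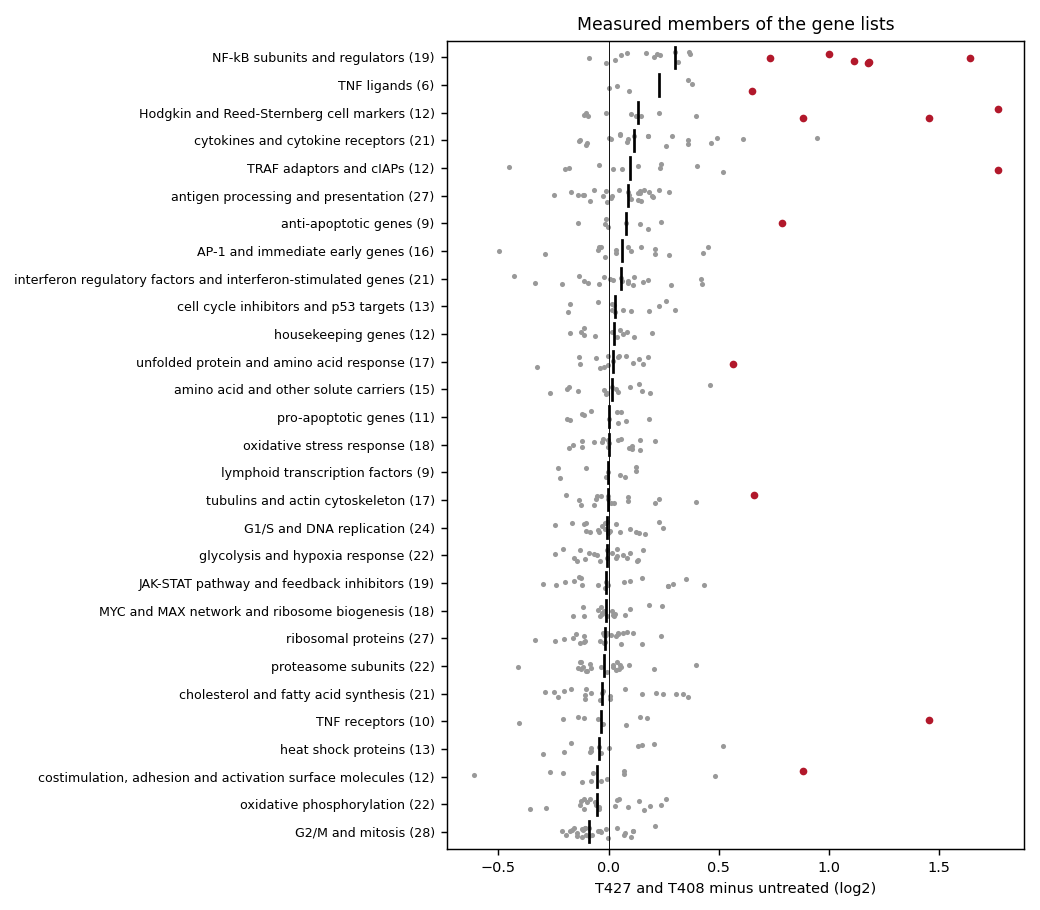
Each point is the log2 difference of 1 measured gene, with lists of at least 5 measured genes in rows (number measured in brackets), red points for raised genes and black lines for list medians. The NF-kB list has the highest median, 0.30, and the list of mitotic genes the lowest, -0.09.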

How the data were processed

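RNA was extracted with TRI reagent and hybridised as biotinylated cRNA, per the labels' protocols. The authors deposited a signal intensity before normalization for each array and probe, and a table of processed intensity. A detection p-value stands beside each signal, per the file headers. The submitters' processing notes name GenomeStudio and the design text BeadStudio, with no version in either.

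From the deposited intensity, background was corrected with the normexp model, using negative-control moments inferred from the detection p-values. After adding an offset of 16, arrays were quantile-normalised and log2-transformed (limma 3.58.1, R 4.3.3). Probes were named through GEO's platform annotation, with 28043 symbols updated by Entrez identifier against RefSeq and 39 kept. Of 48780 probes 13 had several genes and 20685 none. A gene is represented by its brightest tested probe.

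All 12 arrays entered 1 fit with 5 group means (T427 and T408 as 1 level), or 6 for single antibodies, tested two-sided with lmFit and eBayes, adjusted by Benjamini-Hochberg over 10060 probes. The procedure was tested on simulated data. Members, the rule for naming genes and the lists were chosen with earlier results of these data known. The rule took the 15 largest called changes each way among genes whose antibody and untreated arrays did not overlap. A direction with fewer genes was filled up to 10 by smallest p. The rule also took up to 3 called members per list or the member with the smallest p, TNFRSF8, and 3 genes for T427 against T408. Precision is limited by the number of arrays, and intervals are at 95%. Alternatives were other normalizations, filters, fits, adjustments and leaving out each array.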

Additional observations from a re-analysis of the deposited data

Results flagged for a closer look

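In 4 of 73 named genes, 1 of the 4 antibody arrays stood far from the other 3, by a gap to its neighbour, as a share of the group's range, above Dixon's 95% critical value, which chance gives in about 1 of 20 groups. These were ADAM17 on T427 replicate 1 (gap 0.839 of the range), NFKBIE on T427 replicate 2 (0.905), IRF1 on T408 replicate 1 (0.948) and CAT on T408 replicate 2 (0.903). The ADAM17 probe was undetected on both T427 arrays, so that its flagged value is a signal below the limit of detection.

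TRIM45 lay on opposite sides of both untreated arrays with T427 and with T408, and the antibodies differed by 0.681 on the log2 scale (limma adjusted p = 0.998). It was undetected on the untreated and the T408 arrays, so that this order and this size compare signals below background, and the measured bound is at least 1.23-fold higher with T427 than with T408. It was picked as the gene with the smallest p of T427 against T408.

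Of 1527 detected probes without an assigned gene, 4 were called against untreated cells, all higher with T427 and T408. The log2 differences were 1.43 for probe ILMN_1776181, 1.68 for ILMN_1681644, 1.06 for ILMN_2405684 and 0.734 for ILMN_1828491.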

How the results depend on the processing

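The 39 probes called for T427 and T408 against untreated cells became 21 with only the arrays of the groups compared, 24 with no filter on dim probes, 67 with a trend in the variance prior and 85 with adjustment over all 7 comparisons (76 higher and 9 lower). In the same order T427 alone gave 2, 12, 43 and 62 (25 as reported) and T408 alone 7, 15, 40 and 66 (25 as reported). T427 against T408 gave 5 with adjustment over all 7 comparisons, and against PW30 the count was 616 with no filter and 619 with that adjustment (978 as reported). With each array left out in turn, the counts ranged from 24 to 85 for the pooled comparison, 8 to 33 for T427, 9 to 59 for T408, 269 to 538 against CD30L-Fc, 342 to 595 against T104 and 481 to 888 against PW30. T427 against T408 gave 0 by limma each time. The cause was not tested, except that fewer arrays or more probes enter some settings.

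Of the 30 raised genes, 16 kept their call under each alternative in which they were tested (ANK3, CD83, CXCR4, GPR132, HIVEP1, IL4I1, LACTB, NFKB2, NFKBIA, NFKBIZ, PLEKHG1, RELB, SDC4, TNFAIP3, TNFRSF9 and TRAF1), 14 lost the call under at least 1 and none changed sign. Of the raised genes 8 were lost without untreated replicate 1 and 11 without untreated replicate 2. Among 3 uncalled genes the sign turned: with each array left out in turn, TNFRSF8 ranged from -0.336 (without T408 replicate 2) to 0.0884 (without T427 replicate 2), CD68 from -0.182 (without untreated replicate 1) to 0.0323 (without T408 replicate 2) and FCER2 from -0.0211 (without untreated replicate 1) to 0.158 (without untreated replicate 2). Replicate numbers did not pair the arrays: the deviations of same-numbered arrays correlated at -0.09 to 0.09 over 15 pairs of groups. With the replicate block, 35 probes were called (34 higher, 1 lower), and 3 raised genes were lost. A fit with the chip as a block was not run, since the file headers used here name no chip. Genes near background had only bounds, and 134 genes were undetected on both untreated arrays.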
